A study of Mus musculus with 2 samples.

Results

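The fibrillar collagen genes Col1a1, Col1a2, Col3a1, Col5a1 and Col5a2, the fibronectin gene Fn1 and the fibrillin gene Fbn1 were described by their 5-hydroxymethylcytosine (5hmC) peaks in mouse embryonic fibroblasts (MEFs). Members were the peaks that shared at least 1 base with 1 of 7 windows set around these genes in the mouse build mm9, 718 kb in all. They came to 8 of the 6726 peaks called at passage 5 and 58 of the 60157 called at passage 0. The cells were C57BL/6 MEFs taken from embryos 13.5 days after mating and grown in high-glucose medium with 10% fetal calf serum. One group was harvested at passage 5 and the other at passage 0, with 1 library each, and the labels name no genetic change or drug in either. Sonicated DNA was enriched for 5hmC with a kit that tags the modified base by the GLIB chemistry, so that a peak is an enriched stretch of DNA and not a single modified base. Primary MEFs are a mixed population, and the peak lists hold no RNA values against which to check the cell type.

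Collagens I, III and V are fibrillar collagens, long triple helices of glycine-rich repeats that assemble into the fibres of skin, tendon and bone. Col1a1 and Col1a2 encode the chains of collagen I, Col3a1 the chain of collagen III, and Col5a1 and Col5a2 chains of collagen V, which sets the diameter of collagen I fibrils. Fibronectin binds cells through integrins and guides collagen assembly, and fibrillin-1 builds the microfibrils that carry elastin and bind latent TGF-beta. Fibroblasts are the main producers of these proteins. 5hmC is made from 5-methylcytosine by the TET enzymes and is often found in the bodies of expressed genes.

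In mammals 5-methylcytosine lies mostly in CG dinucleotides (CpGs), and the supply of CpGs at the starts of these genes differed widely. The following 4 sequences are shown for that contrast. They are the stretches 250 to 51 bases upstream of the RefSeq start in GRCm38.p6, a later build than that of the peaks, 200 bases each, 5′ to 3′ along the gene, with every CpG in capitals. The RefSeq promoter table was matched for these 4 of the 7 genes.
Col5a1, chr2:27886175-27886374, plus strand: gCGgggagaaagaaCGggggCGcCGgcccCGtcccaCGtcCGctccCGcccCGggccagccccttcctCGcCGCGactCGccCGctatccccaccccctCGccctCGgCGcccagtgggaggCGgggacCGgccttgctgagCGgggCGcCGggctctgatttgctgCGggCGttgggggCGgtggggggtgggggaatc
Col1a2, chr6:4505368-4505567, plus strand: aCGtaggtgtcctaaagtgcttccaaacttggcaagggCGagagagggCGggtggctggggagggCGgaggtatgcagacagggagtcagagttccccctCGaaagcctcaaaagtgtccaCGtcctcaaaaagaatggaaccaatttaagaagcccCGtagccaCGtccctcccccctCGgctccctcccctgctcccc
Fbn1, chr2:125506489-125506688, minus strand: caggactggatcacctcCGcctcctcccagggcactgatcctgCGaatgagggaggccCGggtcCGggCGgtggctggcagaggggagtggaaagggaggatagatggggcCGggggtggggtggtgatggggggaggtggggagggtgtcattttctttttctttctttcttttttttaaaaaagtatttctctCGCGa
Col3a1, chr1:45311288-45311487, plus strand: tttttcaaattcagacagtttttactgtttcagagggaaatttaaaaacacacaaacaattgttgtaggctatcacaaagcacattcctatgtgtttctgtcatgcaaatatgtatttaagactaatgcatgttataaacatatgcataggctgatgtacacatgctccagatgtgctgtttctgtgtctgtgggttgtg

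The Col5a1 stretch held 25 CpGs, a number reached by 4.83% of all 32851 promoter entries over the same stretch. The Col1a2 and Fbn1 stretches held 9 and 8, above the median of 4. The Col3a1 stretch held none, while 89.1% of the entries held at least 1 (the motif CG reads the same on both strands). The Col3a1 window was the only 1 of the 7 without a passage 0 peak. Whether this goes with the CpG number was not tested, and CpG counts were at hand for 4 of the 7 genes. The gene starts could not be placed on the peaks' build, so no peak was assigned to a promoter, exon or intron.

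Peaks were called in 5 of the 7 windows at passage 5 and in 6 of 7 at passage 0. Together the windows held 0.0111 peaks per kb at passage 5 (95% exact Poisson interval 0.00481 to 0.0220) and 0.0808 per kb at passage 0 (0.0613 to 0.104). These densities were 3.98 and 3.22 times those of the 19 autosomes, which were 0.00280 and 0.0251 peaks per kb. The peaks covered 0.565% of the windows at passage 5 and 7.23% at passage 0, against 0.161% and 2.37% of the autosomes. Mean peak width in the windows was 507 bp at passage 5 and 904 bp at passage 0. The autosomal figures take in genes and the DNA between genes alike, and no set of other gene windows was at hand, so the higher density is not shown to be particular to matrix genes. The intervals take peaks as independent events and reflect counting error alone. There was no replicate, the read depth behind either list is unknown, and no p-value is given.

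**Figure D1:**
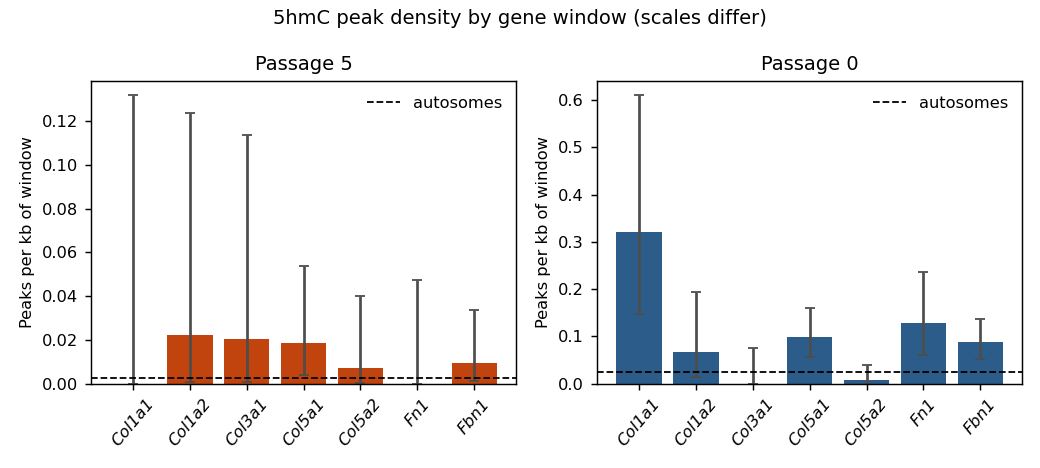
Peaks per kb in each gene window at passage 5 (left) and passage 0 (right), with 95% exact Poisson intervals and the autosomal density as a dashed line; the vertical scales differ. At passage 0, Col1a1 stood highest with 0.321 peaks per kb, and Col3a1 had no peak.

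The ratio of passage 5 to passage 0 peaks was 0.138 in the windows (0.0569 to 0.290) and 0.112 in the rest of the lists (0.109 to 0.115). The interval of the windows includes the value of the rest. The drop in peak number between the passages was thus not distinguishable here from that of the whole lists. Less 5hmC at passage 5 cannot be told apart from a library of lower depth or enrichment. In the whole lists, 69.9% of passage 5 peaks and 7.63% of passage 0 peaks had a peak at the other passage, which is the background for the shared sites of each gene.

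At passage 5, 5 of the 7 windows lay above the autosomal density, each with 1 to 3 peaks. These were all the windows with a peak, since at these lengths 1 peak was enough to exceed it. The whole interval lay above it only in Col5a1, with 0.0184 peaks per kb (0.00380 to 0.0538). That rested on 3 peaks, of which 1 was 358 bp wide with a score, 163.95, given to 43 passage 5 peaks. The interval without this peak was not computed. At passage 0 the order of the windows by density was Col1a1, Fn1, Col5a1, Fbn1, Col1a2, Col5a2 and Col3a1. Of these, 5 lay above the autosomal density, and in 4 of them (Col1a1, Fn1, Col5a1 and Fbn1) the whole interval did. Neighbours in this order had overlapping intervals. Autosomal tiles of the same length held at least as many passage 0 peaks in 0.259% of cases for Col1a1 and 3.87% for Fn1. For Col5a1, Fbn1 and Col1a2 these shares were 5.78%, 6.79% and 16.4%. For collagen V, Col5a1 had 0.0982 peaks per kb (0.0561 to 0.159) and Col5a2 had 0.00719 (0.000182 to 0.0401), and these intervals do not meet. With peaks scoring 100 or more alone they do, since Col5a1 then had 0.0675 (0.0337 to 0.121) while Col5a2 was unaltered. For collagen I, Col1a1 had 0.321 (0.147 to 0.610) and Col1a2 had 0.0667 (0.0137 to 0.195), and the intervals overlap.

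**Figure D2:**
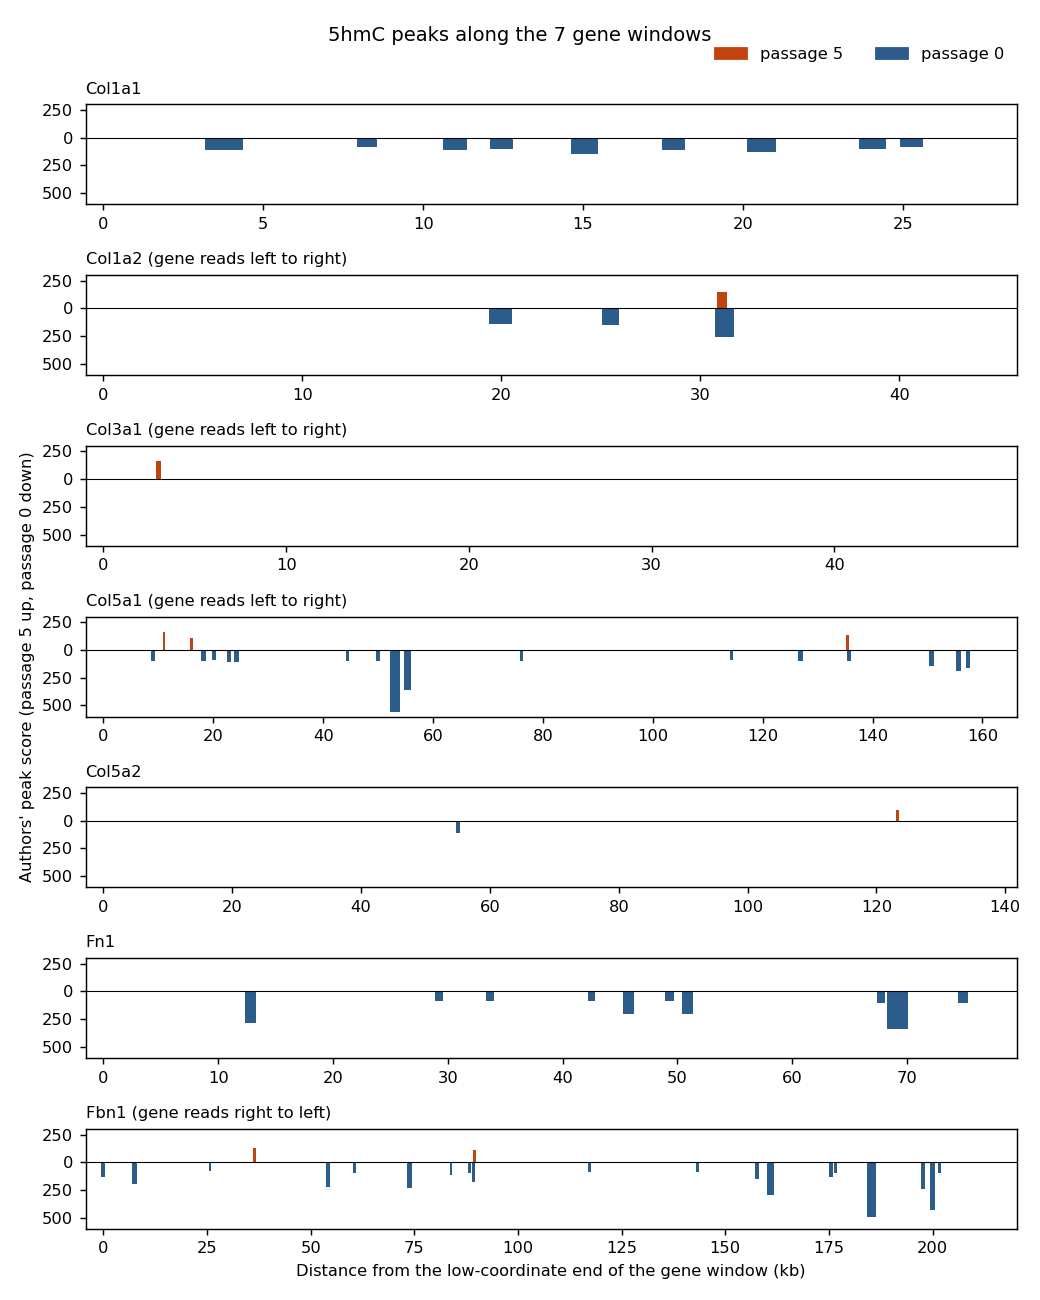
Peaks along each window, by distance in kb from the window's low-coordinate end, with the authors' score as bar height, passage 5 upward and passage 0 downward; bars are as wide as the peaks and horizontal scales differ. Passage 0 peaks ran through Col1a1 from end to end, whereas the Col3a1 window held none and the Col5a2 window 1.

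Col1a1 (chromosome 11, bases 94792000 to 94820000, 28.0 kb) had no peak at passage 5 and 9 at passage 0. The 9 formed a single run from base 94795168 to 94817618, with no gap over 5 kb, and covered 26.2% of the window, the highest share of the 7. Tiles of the same length laid end to end over the autosomes held at least 9 passage 0 peaks in 0.259% of 85569 cases. Every peak in the run was weak to moderate by the authors' score, a value per peak on an unstated scale that was compared only within a list. Scores ran from 84.8 to 143 with a median of 108, and 7 of 9 lay below the median of the passage 0 list, which was 129. The highest was at bases 94806609 to 94807460. The nearest passage 5 peak lay 2.63 kb beyond the low-coordinate end of the window, and 93.2% of the tiles also had no passage 5 peak.

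Col1a2 (chromosome 6, bases 4450000 to 4495000, 45.0 kb) had 1 peak at passage 5 and 3 at passage 0. With each window cut into 5 equal bins from the 5′ side of the gene, all 4 lay in bins 3 and 4. The passage 5 peak, at bases 4480833 to 4481361 scoring 148, lay wholly inside the strongest passage 0 peak, at 4480742 to 4481679 scoring 258. The other passage 0 peaks scored 142 and 148 and had no passage 5 peak. This was the only window of the 7 whose strongest passage 0 peak had a passage 5 partner. The strongest passage 0 peak without one lay at bases 4475075 to 4475930.

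Col3a1 (chromosome 1, bases 45363000 to 45412000, 49.0 kb) had 1 peak at passage 5 and none at passage 0. At passage 0, 56.6% of the autosomal tiles of this length were empty too. The passage 5 peak lay at bases 45365854 to 45366128, 2.99 kb from the 5′ edge of the window, and scored 164. It was 275 bp wide, the narrowest of the 8. Its nearest passage 0 peak was 115 kb away. The same score, 163.95, was given to 43 peaks of the passage 5 list, none wider than 398 bp. Of these, 58.1% (42.1% to 73.0%) had a passage 0 peak, an interval that includes the share of the whole list. Narrow passage 5 peaks of at most 358 bp had a passage 0 peak in 53.3% of cases (47.0% to 59.5%), below the 69.9% of the whole list. That cutoff was the width of the second narrowest passage 5 peak in these windows, so it is no independent check on their peaks.

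Col5a2 (chromosome 1, bases 45426000 to 45565000, 139 kb) is the next gene after Col3a1 in RefSeq's order. Its window had 1 peak at passage 5, at bases 45549047 to 45549570 scoring 93.8, and 1 at passage 0, at 45480703 to 45481309 scoring 107. They lay 67.7 kb apart. At passage 0, 51.3% of the autosomal tiles of this length held 1 peak or none. Over the 202 kb from the start of the Col3a1 window to the end of the Col5a2 window there were 2 peaks at passage 5 and 1 at passage 0, and the last passage 0 peak before it ended 717 kb from the Col3a1 window. In the 1 Mb centred on Col5a2, the DNA outside its window had 1 peak at passage 5 and 3 at passage 0.

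Col5a1 (chromosome 2, bases 27737000 to 27900000, 163 kb) had 3 peaks at passage 5 and 16 at passage 0. At passage 0 they were unevenly placed. Counted from the 5′ side, the bins held 5, 4, 1, 2 and 4 peaks. The strongest of all 58 passage 0 peaks was here, at bases 27789133 to 27791010 scoring 557, a score reached by 1.35% of the passage 0 list. It and the next peak, which lay 0.660 kb beyond its end and scored 360, had no passage 5 peak, and the nearest one lay 35.8 kb from the first. Of the 16, 11 lay below the list's median score. The site that did recur was a weak one at bases 27872289 to 27873020 with a passage 0 score of 97.9, overlapped by a passage 5 peak at 27872264 to 27872752 scoring 138. The other passage 5 peaks lay in the bin at the 5′ side, at bases 27747802 to 27748159 scoring 164 and at 27752748 to 27753310 scoring 104. Each was close to a passage 0 peak without touching it, at distances of 1.388 kb and 1.398 kb. The first was 358 bp wide and had the same repeated score, 163.95, as the passage 5 peak of Col3a1.

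Fn1 (chromosome 1, bases 71627000 to 71705000, 78.0 kb) had no peak at passage 5 and 10 at passage 0. Tiles of this length held at least 10 passage 0 peaks in 3.87% of cases and no passage 5 peak in 84.2%. Scores at passage 0 ran from 83.1 to 341 with a median of 103. The high ones were spread over the window. The strongest peak lay at bases 71695240 to 71697061, and others of at least 200 lay at 71639346 to 71640248 scoring 282 and at 71672252 to 71673258 scoring 201. The nearest passage 5 peak to the strongest of them was 29.6 kb away, beyond the window. None of the 10 had a passage 5 peak. At 3 counts of the total, this allows a share of up to 30.0%, and the exact Clopper-Pearson interval ends at 30.8%; both include the 7.63% of the whole list.

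Fbn1 (chromosome 2, bases 125121000 to 125337000, 216 kb) had 2 peaks at passage 5 and 19 at passage 0. It carried 6 of the 12 passage 0 peaks scoring 200 or more, against 3 in Fn1, 2 in Col5a1 and 1 in Col1a2. From the 5′ side, the bins held 6, 3, 3, 4 and 3 passage 0 peaks. The bin at the 5′ side held the strongest, at bases 125305226 to 125307435 scoring 497 and 2210 bp wide, and the next strongest, at 125320278 to 125321578 scoring 429. Neither had a passage 5 peak, and the first was 58.7 kb from the nearest. The shared site was a moderate one, at bases 125209846 to 125210604 with a passage 0 score of 174, where the passage 5 peak at 125210190 to 125210811 scored 112 and had 415 bases in common with it. The other passage 5 peak, at bases 125157176 to 125157870 scoring 132, lay 10.2 kb from the nearest passage 0 peak.

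**Figure D3:**
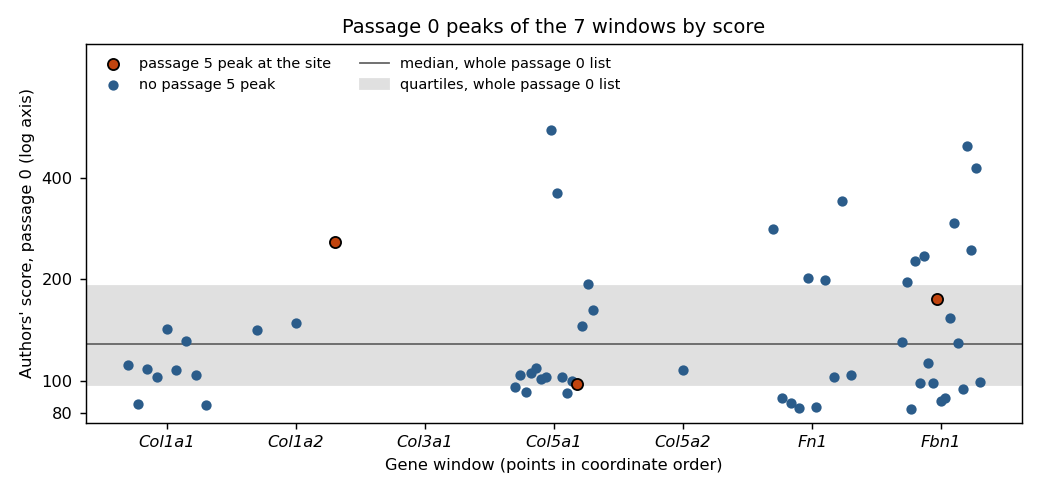
Authors' score of each passage 0 peak by gene window on a log axis, in coordinate order within a window, with sites that also had a passage 5 peak in orange and the median and quartiles of the whole passage 0 list in grey. The shared sites scored 258, 97.9 and 174, and the strongest peaks of Col5a1, Fn1 and Fbn1 had no passage 5 peak.

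Few sites in these genes were peaks at both passages. Of the passage 5 peaks in the windows, 3 of 8 had a passage 0 peak, which is 37.5% (95% exact Clopper-Pearson interval 8.52% to 75.5%), against 69.9% of the whole passage 5 list. Of the passage 0 peaks, 3 of 58 had a passage 5 peak, which is 5.17% (1.08% to 14.4%), against 7.63% of the whole passage 0 list. Both intervals include the list's share, so neither share is distinguishable from it. The shared sites were 1 each in Col1a2, Col5a1 and Fbn1. In each of them the passage 5 peak was the narrower, with 529, 489 and 622 bp at passage 5 against 938, 732 and 759 bp at passage 0. Passage 5 peaks were also narrower by the median of the whole lists, with 563 bp in the passage 5 list and 850 bp in the passage 0 list.

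In the passage 0 list the share with a passage 5 peak rises with the score, and the windows were therefore set beside the same score classes. Of the 12 passage 0 peaks in the windows scoring 200 or more, 1 had a passage 5 peak, which is 8.33% (0.211% to 38.5%), against 18.1% in the list. From 100 to below 200 it was 1 of 28, or 3.57% (0.0904% to 18.3%), against 5.65%. Below 100 it was 1 of 18, or 5.56% (0.141% to 27.3%), against 2.54%. Each interval includes the list's share. The share of high scores was close to that of the list: 20.7% of the passage 0 peaks in the windows and 22.9% of the list scored at least 200. The median score was lower, with 108 in the windows against 129 in the list. Of the 58 peaks in the windows, 25 reached the list's median.

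**Figure D4:**
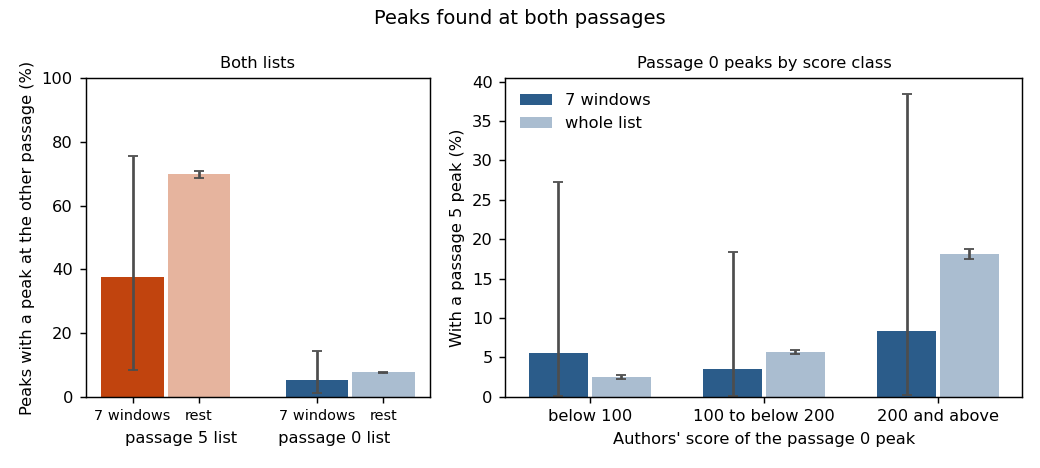
Share of peaks with a peak at the other passage in the 7 windows and in the rest of each list (left), and of passage 0 peaks by score class in the windows and in the whole list (right), in percent with 95% exact intervals. The windows had 37.5% at passage 5 and 5.17% at passage 0, with intervals that reach the shares of the lists.

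Most passage 0 peaks in the windows lay close to another, as did most of the list, and the windows differed in this. Of the 58, 43 were within 5 kb of another passage 0 peak, which is 74.1% (61.0% to 84.7%), against 57.4% of the list. Of these, 42 formed 12 runs of 2 to 9 peaks inside the windows. The last of the 43, at the edge of the Fbn1 window, had its neighbour outside it. The interval takes peaks as independent, though closeness is mutual between neighbours, so it cannot decide a difference from the list. All 9 Col1a1 peaks were among the 43, and the share without that window was not computed. The other windows gave 9 of 10 in Fn1, 3 of 3 in Col1a2 and 11 of 16 in Col5a1. Fbn1 had 11 of 19, and the 1 peak of Col5a2 had no such neighbour. The windows also had 3.22 times the autosomal density of passage 0 peaks. Among the runs, the one in Col1a1 was the longest at 22.5 kb. The windows of Col1a1, Fn1, Fbn1, Col5a1 and Col1a2 had 8.01, 2.19, 2.30, 1.68 and 1.63 times the passage 0 density of the rest of the 1 Mb around each. For Col5a2 this ratio was 2.06, from 1 peak in the window and 3 outside it. Col3a1 went the other way, with a ratio of 0 from no peak in the window and 2 outside it. The Col1a2 ratio rested on 3 peaks in the window, and no intervals were computed for these ratios. Outside the windows of the first 5 genes named, there were 0.0383 to 0.0586 passage 0 peaks per kb, above the autosomal 0.0251. Outside the Col5a2 and Col3a1 windows there were 0.00348 and 0.00210.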

How the data were processed

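5hmC was mapped by kit-based GLIB enrichment and sequencing in 1 library per passage. Per the submitters' processing notes, the tools were MACS 1.4.1, Bowtie 0.12.7 and CASAVA 1.8 and the build mm9, with no steps assigned. Alignment settings, duplicate handling, input control and peak cutoff are not stated in the labels. Each library's peak list was deposited with a score per peak, on a scale the file does not state; scores were compared only within a list.

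Coordinates are mm9, counted from 1. Peaks were called shared when at least 1 base was common, and these counts equalled those of bedtools 2.31.1. Shares carry exact Clopper-Pearson and densities exact Poisson intervals at 95%. Autosome lengths were spans from first to last peak. The overlap step was tested on simulated data. The rule for named peaks took, per window, the strongest passage 0 peak, the strongest one without a passage 5 peak and every passage 5 peak. Windows, genes and rules were chosen with earlier results of these data known. Other matrix genes were not analysed here, since no mm9 annotation was used. Orientation came from the RefSeq promoter table for 4 genes; the others were counted from the low-coordinate end. Alternatives covered borders, score, merging, overlap and leaving out each window. Python 3.11.15, numpy 2.4.6, pandas 2.3.3, scipy 1.17.1 and matplotlib 3.10.9 were used.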

Additional observations from a re-analysis of the deposited data

How the results depend on the processing

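Over the 7 windows together, 88 values were recomputed for 7 results. Of these, 86 stayed within the interval of the reported value and 2 left it. With scores of at least 100 only, the passage 0 density was 0.0557 peaks per kb and the covered share 5.46%, because 18 weaker peaks dropped out. Scores below 100 made up 31.0% of the passage 0 peaks in the windows and 28.0% of the whole list. Over all alternatives the shared part of the passage 5 peaks lay between 28.6% and 42.9%, that of the passage 0 peaks between 3.64% and 6.25%, and the ratio of passage 5 to passage 0 peaks between 0.119 and 0.175. With the windows trimmed by 5 kb, the Col3a1 window lost its passage 5 peak, and with scores of at least 100 the Col5a2 window lost its own. Extending the windows by 10 kb on both sides gave the Col1a1 window 1 passage 5 peak, where it had none. The intervals are wide at 8 passage 5 peaks, so staying within them is a weak check. Unknown depth limits every comparison between the passages, and no replicate could be left out. No paired analysis was possible because each passage has 1 library.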
